A study of Mus musculus with 9 samples.

Results

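The genes described are 9 of the 55487 in the count table: C1qa, C1qb and C1qc, which encode the chains of C1q; C1ra and C1s1, the mouse genes of C1r and C1s; C3, C4b and Cfb, the genes of C3, C4 and factor B; and Serping1, the gene of C1 inhibitor. They were chosen by symbol with their measured differences between the Firre and control libraries of this table already known, and each of the 9 matched 1 Ensembl identifier. RNA came from mouse cardiomyocytes, the contractile cells of the heart, in 3 groups of 3 libraries: NC, labelled a blank control; VC, a negative control that received AAV9-VC; and OE_LncFirre, which received AAV9-Firre to overexpress the long noncoding RNA Firre. AAV9 is a viral vector widely used to reach heart muscle, carried by both groups of the main comparison and not, per the labels, by the blank control. Replicates are labelled biological, but whether they were separate animals or cultures is not stated in what was used here, nor are the strain, age and sex of the mice or the promoter in the vector. The p-values thus cover the spread among these libraries alone, and that spread may be technical.

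Complement is a cascade of blood and tissue proteins that marks microbes and cell debris for removal. In the classical branch the recognition molecule C1q, built of A, B and C chains, binds its target and activates the attached proteases C1r and C1s, which cleave C4 and C2. The C3 convertases so formed split C3, the protein on which all branches meet, and factor B gives the convertase of the alternative branch. C1 inhibitor holds C1r and C1s in check, and factor I breaks down deposited C3b. The liver makes most circulating complement, macrophages are the main source of C1q in many tissues, and fibroblasts and endothelial cells can secrete C1r, C1s, C3 and C1 inhibitor.

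The libraries held 15591542 to 22697016 counts assigned to genes. Firre, the targeted gene, was at 62.9, 69.7 and 62.6 CPM in the Firre libraries against 30.2 to 37.2 CPM in the 6 controls. CPM are counts per 1e+06 after TMM scaling, and levels of different genes are compared as CPM per kb of annotated exon. All 14 cardiomyocyte markers were present, with summed levels of 43313 to 45138 CPM in the blank controls, 42528 to 45671 CPM in the negative controls and 68952 to 72300.2 CPM in the Firre group. All 14 were called higher with Firre than in the negative controls, where 27.5% of all genes tested were called higher. Their median log2 difference was 0.74. Markers of other heart cells were measured too, so the libraries were not of cardiomyocytes alone. In bulk RNA, fewer cells of a type and less RNA per cell cannot be told apart.

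Sequences at the starts of these genes are shown first, because C1qb and C1qc were both nearly absent in the Firre libraries while the paired protease genes C1ra and C1s1 and the central gene C3 were reduced to different degrees. RefSeq windows on GRCm38.p6, each 250 bases before to 50 after an annotated start, were at hand for 5 of the 9 genes. They lie at chr4:136886151-136886450 (minus strand, C1qb), chr4:136892865-136893164 (minus, C1qc), chr6:124512371-124512670 (plus, C1ra), chr6:124542310-124542609 (minus, the first of 2 windows of C1s1) and chr17:57228087-57228386 (minus, C3). They are printed 5′ to 3′ on the strand of the gene, with motif matches in capitals.
C1qb: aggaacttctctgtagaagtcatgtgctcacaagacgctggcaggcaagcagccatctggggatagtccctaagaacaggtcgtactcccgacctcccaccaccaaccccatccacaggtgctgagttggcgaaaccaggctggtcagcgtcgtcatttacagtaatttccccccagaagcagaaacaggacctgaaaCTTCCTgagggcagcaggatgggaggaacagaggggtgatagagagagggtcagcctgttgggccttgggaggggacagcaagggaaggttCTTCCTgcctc
C1qc: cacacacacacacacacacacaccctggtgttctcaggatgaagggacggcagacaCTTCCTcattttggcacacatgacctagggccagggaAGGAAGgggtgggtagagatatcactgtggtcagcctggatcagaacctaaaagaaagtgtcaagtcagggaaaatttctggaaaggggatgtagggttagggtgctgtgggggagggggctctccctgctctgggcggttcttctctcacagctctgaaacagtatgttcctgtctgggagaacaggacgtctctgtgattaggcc
C1ra: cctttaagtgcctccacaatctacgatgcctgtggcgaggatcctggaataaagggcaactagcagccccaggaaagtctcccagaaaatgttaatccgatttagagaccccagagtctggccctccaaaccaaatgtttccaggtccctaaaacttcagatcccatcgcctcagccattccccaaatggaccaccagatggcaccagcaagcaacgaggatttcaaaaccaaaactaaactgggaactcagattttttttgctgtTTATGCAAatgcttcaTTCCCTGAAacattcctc
C1s1: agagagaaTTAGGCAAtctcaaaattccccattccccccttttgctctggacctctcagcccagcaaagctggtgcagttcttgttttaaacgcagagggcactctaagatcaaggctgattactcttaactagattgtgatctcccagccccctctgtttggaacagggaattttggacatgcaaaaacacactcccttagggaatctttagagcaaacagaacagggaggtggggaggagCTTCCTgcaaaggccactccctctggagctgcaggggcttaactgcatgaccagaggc
C3: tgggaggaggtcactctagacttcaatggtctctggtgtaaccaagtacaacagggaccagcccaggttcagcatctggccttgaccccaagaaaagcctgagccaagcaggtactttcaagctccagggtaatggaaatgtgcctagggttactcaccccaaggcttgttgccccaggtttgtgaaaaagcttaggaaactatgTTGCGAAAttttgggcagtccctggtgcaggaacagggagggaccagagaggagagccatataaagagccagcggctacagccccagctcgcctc

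The motifs searched on both strands were the interferon-stimulated response element core (GAAA and GAAA, 2 bases apart), the STAT element TTCNNNGAA, an NF-kB element (GGGA and TTTCC, 1 base apart), a C/EBP element TTGCNNAA and the core AGGAAG of ETS factors, the family of the macrophage regulator PU.1. Among all 32851 RefSeq windows of this length, 3.44%, 8.3%, 0.411%, 10.8% and 35.4% held these in the same order. Each of the C1qb and C1qc windows held 2 ETS cores and no other match. The C1ra window held a C/EBP element and a STAT element just downstream of the start, at positions 17 and 33 counted from the start. The C1s1 window held a C/EBP element at position -242 and an ETS core at -8, and the C3 window held a C/EBP element at -45. None of the 5 windows printed held the interferon or NF-kB letters searched. These matches describe letters in a window and were not tested as sites.

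The C1q genes had between 0 and 2 counts each over the 3 Firre libraries. C1qa, at 136895917 to 136898803 on the minus strand of chromosome 4 in mm10, had 3.7, 4.1 and 4.46 CPM in the blank controls, 2.36, 2.21 and 1.94 CPM in the negative controls and no count in any Firre library. The 3 groups did not overlap, and the Firre libraries were the lowest. Over the Firre group a count of 0 allows up to 3 counts, so that C1qa was at least 44.2-fold lower compared with the negative controls and at least 83.4-fold lower compared with the blank controls.

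C1qb had 1.02, 2.05 and 0.686 CPM in the blank controls, 0.411, 0.894 and 1.02 CPM in the negative controls, and 1 count in all in the Firre group, in replicate 1. The controls overlapped each other and the Firre libraries lay below both. The ratio of negative control to Firre was 47.6, with an exact 95% counting interval of 8.13 to 1919. C1qc had 2.49, 2.39 and 1.94 CPM in the blank controls, 1.49, 0.941 and 1.38 CPM in the negative controls, and 2 counts in the Firre group, both in replicate 3. Its ratio of negative control to Firre was 38.5 (10.3 to 323). These bounds and intervals cover counting error only, since the reads carry no molecular identifiers, and all 3 C1q genes passed the low-count filter through the controls alone.

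Between the controls edgeR called none of the C1q genes, and their means were lower with the AAV9-VC vector. The log2 difference of negative minus blank control was -0.91 (SE 0.22) for C1qa, -0.71 (SE 0.42) for C1qb and -0.84 (SE 0.31) for C1qc. For C1qa and C1qc the control groups did not overlap, where 13.1% of all genes tested did not and 6.87% were lower without overlap. C1s1 was the other member without overlap, at 0.22 (SE 0.08), where 6.21% of all genes were higher without overlap. C1qb was uneven, with a coefficient of variation of 56.7% in the blank controls and 41.5% in the negative controls, where C1qa had 9.25% and 9.92%. Per kb of exon, C1qa was 3.4 ± 0.773 times C1qc in the blank controls and 3.31 ± 0.93 times in the negative controls (SD, n = 3).

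Macrophage markers moved with the C1q genes. Of the 16 listed markers 13 passed the filter. All 13 were called lower with Firre than in the negative controls, where 28.4% of all genes tested were called lower. Their median log2 difference was -2.84. Spi1, Tyrobp, Adgre1, Ptprc, Fcgr1 and Fcer1g had 3 to 16 counts each over the Firre group. They passed the filter through the controls alone and so had to be lower, so the count is a description. The summed level of the 16 was 140 to 157 CPM in the blank controls, 111 to 122 CPM in the negative controls and 16.5 to 20.8 CPM in the Firre group. None of the 16 was at 0 counts over the Firre group. Csf1r, the receptor for the main macrophage growth factor, had a log2 difference of -0.78. That of the myeloid regulator Spi1 was -5.45 and rests on 3 counts in the Firre group. The part of macrophages in the C1q values was not tested.

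**Figure D1:**
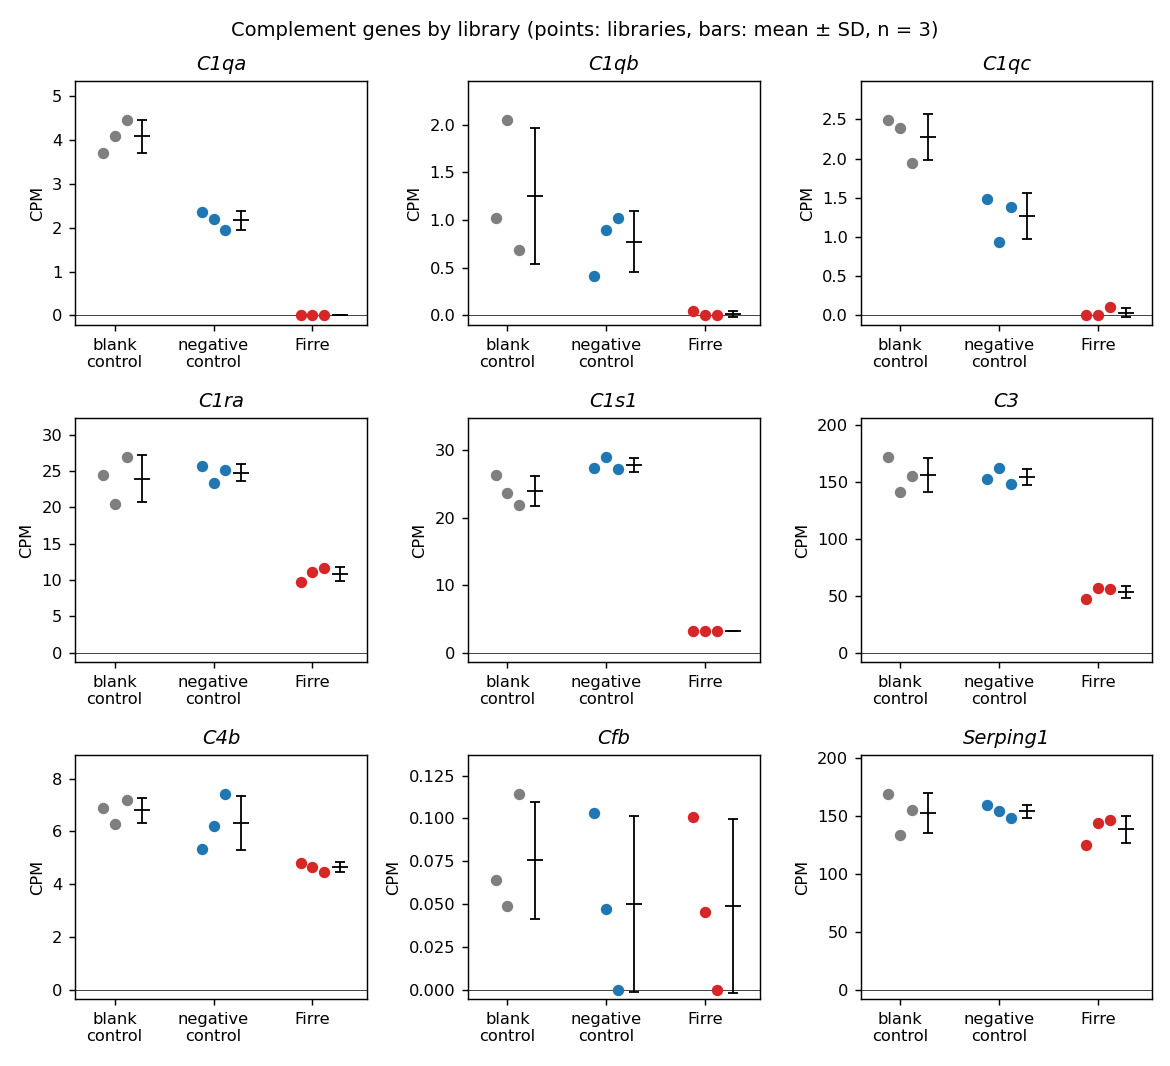
Level of each complement gene in CPM (y axis, linear, a separate scale for each gene) in the 3 blank control, 3 negative control and 3 Firre libraries (points), with mean and SD beside them. C1qa is at 0 in every Firre library, C1s1 drops from 27.2 to 29.0 CPM in the negative controls to about 3.14 CPM, Serping1 differs little, and Cfb holds 0 to 2 counts in any library.

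The proteases attached to C1q were lower with Firre by unequal amounts. C1ra, at 124512405 to 124523443 on the plus strand of chromosome 6, had 24.5, 20.5 and 26.9 CPM in the blank controls, 25.7, 23.4 and 25.2 CPM in the negative controls and 9.77, 11.1 and 11.6 CPM in the Firre libraries. All 3 Firre libraries lay below all 6 controls, and C1ra was 2.29-fold lower than in the negative controls (log2 -1.19, SE 0.10). C1s1, which faces it from 124530345 to 124542359 on the minus strand, had 26.4, 23.7 and 21.9 CPM in the blank controls, 27.4, 29.0 and 27.2 CPM in the negative controls and 3.14, 3.16 and 3.13 CPM in the Firre libraries. The Firre libraries hardly differed among themselves and were 8.86-fold below the negative control (log2 -3.15, SE 0.11). C1s1 shares 18.4% of its exonic bases with the antisense gene Gm16567, which had no count in any library.

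The level of C1s1 relative to C1ra was lower in all 3 Firre libraries than in any control. Per kb of exon, C1s1 was 0.97 ± 0.171 times C1ra in the blank controls, 1.07 ± 0.0918 times in the negative controls and 0.278 ± 0.0254 times in the Firre libraries (SD, n = 3). The highest Firre value of this ratio was 0.306 and the lowest control value 0.777. The neighbouring copies C1rb and C1s2 may share reads with C1ra and C1s1, so all 4 values are uncertain to that extent. C1s2 fell as well, from 3.40 CPM in the negative controls to 0.303 CPM (log2 -3.50, SE 0.32, edgeR adjusted p = 1.05e-10), and C1rb fell from 1.06 to 0.412 CPM (log2 -1.36, SE 0.42, adjusted p = 0.0068). Around the pair, all 4 protein-coding neighbours tested within 100 kb were called lower, where 28.4% of all genes were. C1rb and C1s2 passed the filter through the controls alone and so had to be lower. The count of 4 is thus a description. The 4 were C1rb, C1s2, the C1r-like gene C1rl (log2 -0.61, SE 0.24, adjusted p = 0.0287) and the peroxisomal import gene Pex5 (log2 -0.19, SE 0.08, adjusted p = 0.0499).

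C3, at 57203970 to 57228136 on the minus strand of chromosome 17, was the second most abundant of the 9 per kb of exon. Its values were 172, 141 and 155 CPM in the blank controls, 153, 162 and 148 CPM in the negative controls and 47.1, 56.4 and 55.6 CPM in the Firre libraries. The controls overlapped and the Firre libraries lay well below both. C3 was 2.90-fold lower with Firre than in the negative controls (log2 -1.54, SE 0.07) and 2.94-fold lower than in the blank controls. Hepatocyte markers were nearly absent, with Hnf4a and Serpina1a at 0 counts in all 9 libraries and the 7 markers summing to at most 0.83 CPM. The nearest genes tested beside C3, Gpr108 and Trip10, were at 0.16 (SE 0.07, adjusted p = 0.053) and -0.06 (SE 0.07, adjusted p = 0.481) and did not pass. Vav1, a signalling gene of blood cells 51.0 kb from C3, was called lower (log2 -5.02, SE 0.58, adjusted p = 1.06e-08). Vav1 had 245 counts over the 9 libraries, passed the filter through the controls alone and so had to be lower.

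C4b differed less. The gene lies at 34728380 to 34743882 on the minus strand of chromosome 17, in the class III part of the major histocompatibility complex. It had 6.89, 6.29 and 7.20 CPM in the blank controls, 5.34, 6.21 and 7.40 CPM in the negative controls and 4.81, 4.65 and 4.44 CPM in the Firre libraries. The Firre libraries were all below the controls, the nearest control being negative control replicate 1. C4b was 1.36-fold lower with Firre than in the negative controls (log2 -0.45, SE 0.15). Without negative control replicate 3 the log2 difference was -0.32 and edgeR no longer called it (adjusted p = 0.109). C4a, a near-identical copy that can share its reads, had 58 counts over all 9 libraries and did not pass the filter, so the C4b values are uncertain to that extent.

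Cfb was close to 0 counts throughout. It had 1, 1 and 2 counts in the blank controls, 2, 1 and 0 in the negative controls and 2, 1 and 0 in the Firre libraries, and did not pass the filter. The gene lies at 34856374 to 34862518 on the minus strand of chromosome 17, and 79.5% of its exonic bases are also exons of Gm20547, an overlapping protein-coding entry on the same strand. Gm20547 had no count in any library. Reads that lay in the exons of both genes would be counted to neither under the usual rule, and the table sets aside 2.85% to 3.45% of all counts per library as ambiguous without naming their genes. C2, the protease gene next to Cfb, shares 42.8% of its exonic bases with Gm20547 and had 0.838 CPM in the blank controls, 0.646 CPM in the negative controls and 0.917 CPM in the Firre group. The part of these shared exons in the low values was not tested, and the values of both genes are uncertain.

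Serping1 was the most abundant of the 9 per kb of exon and differed least between the groups. The gene lies at 84765387 to 84775444 on the minus strand of chromosome 2. It had 168, 134 and 155 CPM in the blank controls, 159, 154 and 147 CPM in the negative controls and 124.6, 143 and 146 CPM in the Firre libraries. The Firre libraries overlapped the blank control and lay just under the negative control, with a log2 difference of -0.15 (SE 0.07). The summed C1ra and C1s1 levels per kb were 0.261 ± 0.00833 of Serping1 in the negative controls and 0.0781 ± 0.00164 with Firre. C3 per kb was 0.454 ± 0.0211 of Serping1 in the negative controls and 0.174 ± 0.00391 with Firre (SD, n = 3).

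In every group the order of levels per kb began with Serping1, at 65.5 ± 7.50 in the blank controls, 66.0 ± 2.54 in the negative controls and 59.4 ± 5.09 CPM per kb in the Firre group (SD, n = 3). C3 came second, at 30.3 ± 2.99, 30.0 ± 1.36 and 10.3 ± 1.0 CPM per kb. C1ra and C1s1 came next in the controls and overlapped in the blank controls, while in the Firre group C1s1 had dropped to 1.0 ± 0.00467 against 3.63 ± 0.322 CPM per kb for C1ra. C4b had 1.19 ± 0.0814, 1.11 ± 0.181 and 0.813 ± 0.0325 CPM per kb. C1qa was above C4b in both controls and last of all in the Firre group. In the blank control C4b, C1qb and C1qc overlapped each other.

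By edgeR's quasi-likelihood test across all 15633 genes, 7 of the 8 members that passed the filter were called lower with Firre than in the negative controls and 1, Serping1, was not called, where 56% of all genes tested were called and 28.4% were called lower. The members were chosen with this comparison known, and C1qa, C1qb and C1qc passed the filter only through the controls and so had to be lower, so the count is a description. Their median log2 difference was -2.34, between C3 at -1.54 and C1s1 at -3.15, and that of all genes was 0. In a fit of only the 2 groups compared, where C1qb did not pass the filter, the median became -1.54. Against the blank control, 7 of 8 were likewise called lower, where 56.3% of all genes were called and 28.9% were called lower, at a median of -2.24. All 8 lay below the negative control without overlap, where 62.4% of all genes did not overlap and 31.5% lay lower, and 7 of 8 lay below the blank control, where the shares were 60.5% and 31%. The 2 comparisons share the Firre libraries. Between the controls edgeR called none of the 8, where 0.0576% of all genes were called, and DESeq2 called none of the 8. An unadjusted edgeR p under 0.05 was found for 3 of the 8 and for 1331 of all 15633 genes.

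**Figure D2:**
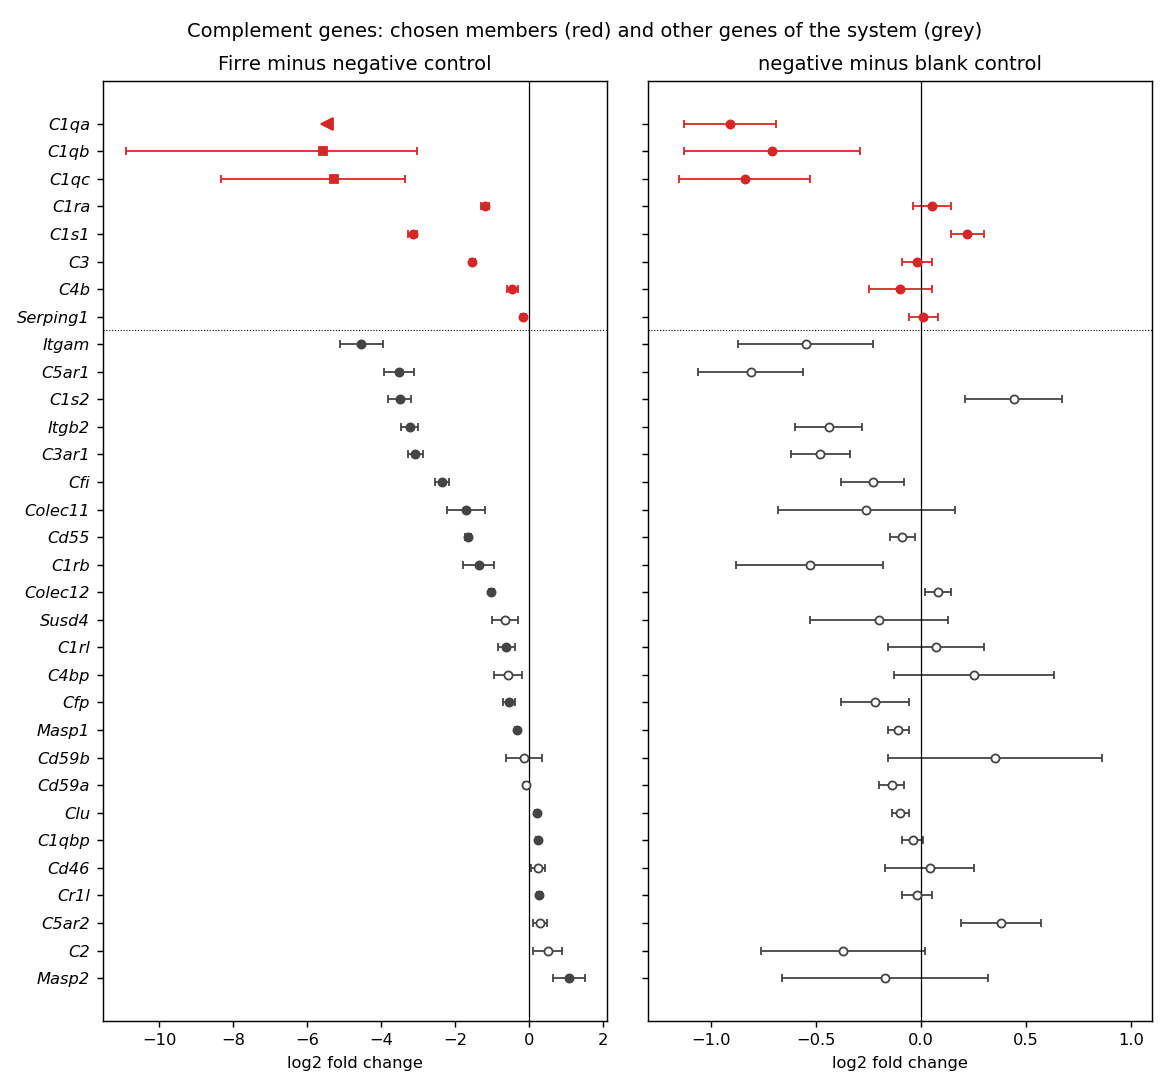
Log2 fold change (x axes, different ranges) of the 8 complement members tested (red, above the dotted line) and other complement genes (grey), for Firre minus negative control (left) and negative minus blank control (right). Circles carry the SE, filled grey circles were called by edgeR, squares are count ratios of C1qb and C1qc with 95% counting intervals, and the triangle is the bound of C1qa; the left panel reaches far below 0 and the right panel stays within about 1 of it.

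Most markers of fibroblasts, endothelial cells, smooth muscle and pericytes, and epicardial and mesothelial cells were also lower with Firre. So were C1ra, C1s1 and C3, while C4b had a log2 difference of -0.45 and Serping1 was not called. Between the Firre and negative control groups, 28.4% of all genes tested were called lower and 27.5% higher. Of 14 fibroblast markers 13 were lower and 1 was not called, at a median log2 difference of -1.01. Their summed levels were 10034 to 10477 CPM in the blank controls, 10039 to 10231 CPM in the negative controls and 4637 to 5181 CPM in the Firre group. Of 12 endothelial markers 10 were lower (median -1.06), of 10 smooth muscle and pericyte markers 9 were lower and 1 higher (median -1.20), and all 10 epicardial and mesothelial markers were lower (median -2.27). These are descriptions, and the part of each cell type in the complement values was not tested.

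**Figure D3:**
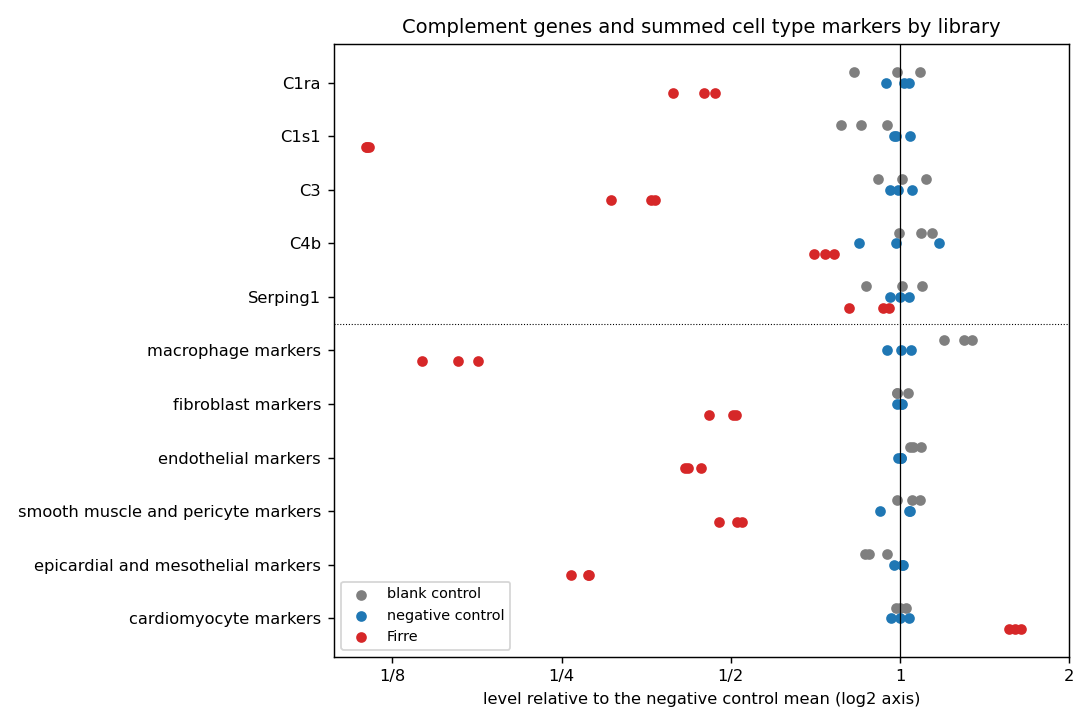
Level in each library relative to the mean of the negative control (x axis, log2 scale), for 5 complement genes and for the summed markers of 6 cell types (rows), with points for blank control, negative control and Firre libraries. Among the 5 genes C1s1 lies farthest to the left with Firre and Serping1 stays near 1, while cardiomyocyte markers lie to the right.

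The patterns nearest to each member were sought among 12081 genes of at least 2 CPM in their highest group, by the Euclidean distance between log2 CPM centred on the mean of the 9 libraries. Nearest to C1qa were Ctss (distance 0.897), Wfdc17 and A2m, and nearest to C1qc were the myeloid genes Fcer1g (0.788), Ms4a6d and Igsf6. C1qb had no close neighbour, the nearest being Lsamp at 1.32 and C5ar1 at 1.38. Nearest to C1s1 were Lrrn4 (0.292) and Upk3b (0.319), both on the epicardial and mesothelial list, and Bmx. C1ra was nearest to Ltbp4 (0.222), Nos3 and Actg2, and C3 to Tmem108 (0.156), the angiopoietin receptor gene Tek (0.173) and Fndc1. C4b was nearest to Cyp2j6 (0.241), Polm and Pop1, and Serping1 to Trp53i13 (0.144), Tfip11 and Tm2d3. C1qb and Cfb were under 2 CPM and could not be among the nearest, and none of the other 7 members was.

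The rest of the system was read from 48 other complement genes. With Firre against the negative control, 14 of the 25 that passed the filter fell and 4 rose, where 28.4% and 27.5% of all genes were called in those directions. The median log2 difference was -0.61. Among the 14, Itgam, C5ar1, Colec11, C1s2 and C1rb had means of 0.0673 to 0.412 CPM with Firre. They passed the filter through the controls alone and so had to be lower. Itgb2, with 0.354 CPM in Firre replicate 1, passed through the controls alone too. The count is thus a description. Among regulators in the fluid phase, Cfi, the gene of factor I, fell from 7.27 to 1.42 CPM (log2 -2.36, SE 0.19, adjusted p = 3.39e-12). Clu, the gene of clusterin, which blocks the membrane attack complex, rose from 2208 to 2553 CPM (log2 0.21, SE 0.04, adjusted p = 1.30e-04).

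Regulators on the cell surface went different ways. Cd55, whose product speeds the decay of convertases, had 94.8, 107 and 95.3 CPM in the negative controls and 31.2, 31.1 and 32.2 CPM with Firre (log2 -1.65, SE 0.07, adjusted p = 4.09e-19). Cr1l, the gene of the rodent regulator Crry, rose from 51.3 to 62.3 CPM (log2 0.28, SE 0.06, adjusted p = 5.23e-04). Cd59a, whose product blocks the membrane attack complex, had 44.6 CPM in the negative controls and 42.6 CPM with Firre (log2 -0.07, SE 0.06, adjusted p = 0.391), and Cd46 had a log2 difference of 0.24 (SE 0.20, adjusted p = 0.332). Of the 10 regulators tested, 3 fell, 2 rose and 5 were not called, shares near or below the 28.4% and 27.5% of all genes.

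Of 6 receptor genes tested 4 fell, 1 rose and 1 was not called, where 28.4% of all genes fell and 27.5% rose. C3ar1, the receptor of C3a, had 9.61, 9.13 and 7.14 CPM in the negative controls and 1.16, 1.22 and 0.627 CPM with Firre (log2 -3.08, SE 0.20, adjusted p = 2.29e-14). Itgb2, the beta chain shared by the integrin receptors for C3 fragments, fell from 6.01 to 0.642 CPM (log2 -3.22, SE 0.23, adjusted p = 2.73e-13). With 0.354, 0.632 and 0.94 CPM in the Firre libraries, Itgb2 passed the filter through the controls alone, so its fall is a description. The alpha chain gene Itgam and the C5a receptor gene C5ar1, both under 2 CPM and named after their values were seen, fell by 4.54 and 3.51. Both passed the filter through the controls alone and so had to be lower, so the count of 4 is a description. C5ar2 had 4.16 and 5.11 CPM and did not pass (log2 0.30, SE 0.18, adjusted p = 0.156). C1qbp, a mostly mitochondrial protein first found as a C1q binder, rose by 0.24 (SE 0.05, adjusted p = 3.55e-04). The macrophage markers given above were lower too, like the 4 receptor genes that fell.

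In the lectin and alternative branches, Colec12, a scavenger receptor of the collectin family, fell from 106 to 52.3 CPM (log2 -1.02, SE 0.06, adjusted p = 1.11e-15). Masp1, a protease of the lectin branch, fell from 87.6 to 70.3 CPM (log2 -0.32, SE 0.05, adjusted p = 9.92e-06). Masp2, of the same branch, under 2 CPM and named after its values were seen, was called higher. It had 0.623 and 1.32 CPM in overlapping groups (log2 1.07, SE 0.43, adjusted p = 0.0386). Of the 8 classical and lectin genes tested besides the members, 6 fell and 1 rose, where 28.4% and 27.5% of all genes did. Of the 6, C1rb, C1s2 and Colec11 passed the filter through the controls alone and so had to be lower. The count is thus a description. Cfp, the gene of properdin, which stabilises the alternative convertase, fell by 0.54 (SE 0.17, adjusted p = 0.00639). Of the 23 genes that did not pass the filter, 7 had no count in the 9 libraries, among them the terminal components C6, C8a and C8b. None of the terminal components from C6 to C9 passed. Between the controls, edgeR and DESeq2 called none of the 25. An unadjusted edgeR p under 0.05 was found for 6 of them and for 1331 of all 15633 genes. Against the blank control 15 fell and 4 rose, where 28.9% of all genes fell and 27.3% rose, with Cd55 at -1.74 (SE 0.07, adjusted p = 1.25e-19). Itgam, C5ar1, Colec11, C1s2, C1rb and Itgb2 are among the 15, so that count is a description too.

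Acute-phase proteins, which the liver and inflamed tissues make with C3, were lower as well. All 11 of the 21 listed genes that passed the filter fell with Firre against the negative control, where 28.4% of all genes did. Their median log2 difference was -1.61. A2m and Itih4 passed the filter through the controls alone and so had to be lower, so the count is a description. A2m, a broad protease inhibitor, fell from 10.7 to 0.274 CPM (log2 -5.23, SE 0.22, adjusted p = 1.40e-18), the ceruloplasmin gene Cp fell by 1.40 (SE 0.05, adjusted p = 1.79e-19), Serpina3n by 1.61 (SE 0.06, adjusted p = 4.78e-18) and Steap4 by 1.54 (SE 0.09, adjusted p = 1.47e-15). Of the contact system, which C1 inhibitor also restrains, 3 of 7 genes passed. The kininogen gene Kng1 had 0.683 CPM in the negative controls and no count with Firre, and Kng2 fell from 1.3 to 0.109 CPM. Both passed through the controls alone and so had to be lower. Bdkrb2, the bradykinin receptor gene, rose by 0.54 (SE 0.09, adjusted p = 6.22e-06).

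Of 25 factors known to induce complement genes that were tested, 6 rose and 14 fell with Firre against the negative control, where 27.5% and 28.4% of all genes did. Their median log2 difference was -0.22. Among the 14, Tnf, named after its values were seen, had 0.354, 0.226 and 0.731 CPM with Firre. Tnf passed the filter through the controls alone and so had to be lower, so the count is a description. Among interferon signalling genes, Stat2 rose by 1.93 (SE 0.06, adjusted p = 7.23e-22) and Irf9 by 1.34 (SE 0.07, adjusted p = 7.34e-17). The interferon receptor and Jak kinase genes on the list were named after their values were seen. Ifngr1, Ifnar1, Ifnar2, Jak1 and Jak2 were called lower (log2 -0.2 to -0.55), and Ifngr2 (0.37) and Tyk2 (0.3) higher. Il1r1, the receptor of interleukin-1, fell from 142 to 44.4 CPM (log2 -1.68, SE 0.06, adjusted p = 3.97e-20). None of the 8 members tested was called higher, but they were chosen with this comparison known. C1qa, C1qb and C1qc passed the filter through the controls alone and could not be higher. The part of these factors in the complement values was not tested.

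**Figure D4:**
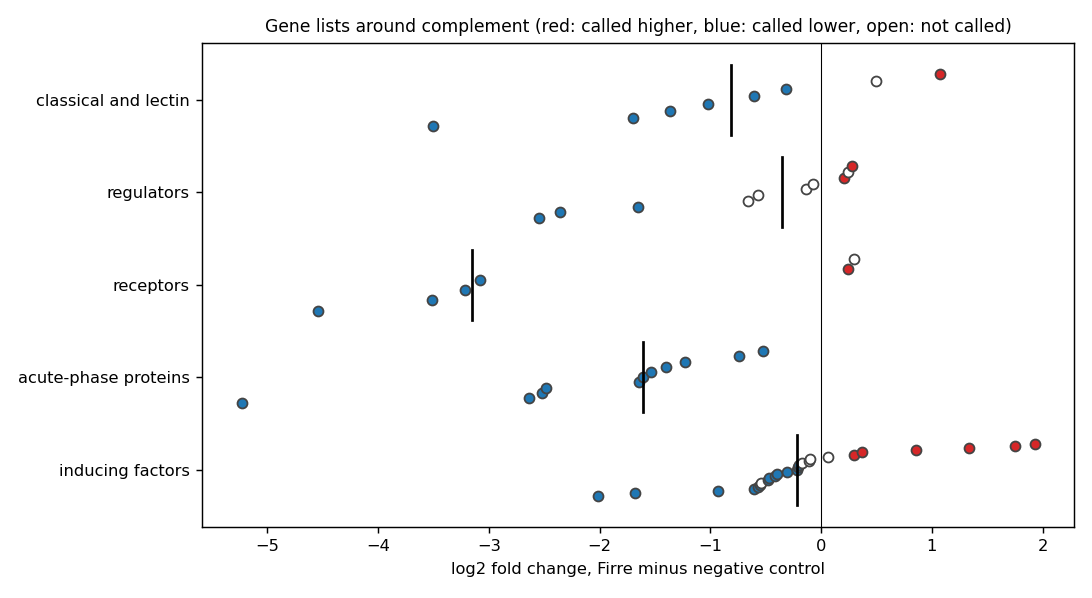
Log2 fold change of Firre minus negative control (x axis) for the tested genes of 5 lists (rows), each point a gene, with red for called higher, blue for called lower and open for not called; the black bar is the median of the list. All 11 acute-phase points lie below 0, and the inducing factors spread to both sides.

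Neighbours of the other members are read against the 28.4% of all genes called lower and the 27.5% called higher. Beside the C1q genes, Ephb2 was the only neighbour tested and was lower (log2 -1.52, SE 0.12, adjusted p = 3.93e-12). Around C4b and Cfb, 12 of 15 protein-coding neighbours within 100 kb were tested, of which 3 were lower, 1 was higher and 8 were not called. Around Serping1, 8 of 11 were tested, of which 5 were higher, 1 was lower and 2 were not called. Ube2l6, the interferon-induced gene of the ISG15 conjugating enzyme, starts 23.4 kb from Serping1 and rose by 0.86 (SE 0.10, adjusted p = 3.33e-06).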

How the data were processed

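RNA was taken from cardiomyocytes with TRIzol, per the labels, which name polyA RNA in one field and ribosomal RNA depletion with directional, paired-end libraries in another. FastQC, Trimmomatic, STAR, featureCounts and mm10 are named in the submitters' processing notes, without versions or a strand setting. The authors deposited 1 table of raw read counts with Ensembl identifiers, closed by 5 lines of reads assigned to no gene (16.3% to 17.4% of counts per library), which were left out. Symbols, coordinates and exonic lengths came from GENCODE M21, which matched 55227 of 55487 identifiers. Without a stated strand setting, values of overlapping genes are uncertain.

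Groups came from the sample titles and columns from the descriptions. edgeR 4.0.16 in R 4.3.3 (quasi-likelihood F test, robust, TMM, filterByExpr with a minimum count of 10) fitted all 9 libraries together and tested 15633 genes, with Benjamini-Hochberg adjustment and a threshold of 0.05. Each SE was derived from the log2 fold change and the F statistic (ratio of the first to the root of the second). DESeq2 1.42.0, other scalings, no filter, a replicate term and leaving out each library were tried. On simulated counts for Firre against the negative control (15150 genes), 72% of genes changed by 0.5, 89.3% of those changed by 1 and 98.7% of those changed by 2 on the log2 scale were recovered. The changed genes (50, 75 and 75) were far fewer than those called in the data. They were drawn above a minimum level that C1qb did not reach, so the shares do not cover low-count genes. Of the unchanged genes 20 were called. Depth was 15591542 to 22697016 counts per library. Replicates of a group differed by more than sampling noise (chi-square per degree of freedom 3.27 to 7.39).

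The 9 members and all gene lists were chosen with earlier results of these data known. Named genes are the 9 members; of the other complement genes, up to 12 called ones (5 in other comparisons) of at least 2 CPM by smallest p; up to 4 of each further list; the 3 nearest patterns; and neighbours within 100 kb. Some lists (adipocyte, neutrophil and lymphocyte markers) summed to at most 1.85 CPM in any library. Some named genes are not reported here.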

Additional observations from a re-analysis of the deposited data

How the results depend on the processing

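The members kept their direction and size in most alternatives: of 287 values of single members under other settings, 269 moved by less than the spread between replicates and 18 by more, all 18 among the C1q genes. C1qb and C1qc rest on 1 and 2 counts with Firre; without the Firre replicate that holds them the fitted log2 differences against the negative control became -6.93 and -7.63. With only the 2 groups compared C1qb did not pass the filter, and the median of the tested members against the negative control became -1.54. C4b lost its call without negative control replicate 3 and Serping1, at -0.08 to -0.21, was called in 4 of 12 alternatives. C1qa in negative minus blank control, at -0.84 to -0.98, was called without the low-count filter (adjusted p = 0.036) and in no other alternative.

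Between the controls, the count of genes called (9, 1 higher and 8 lower) became 32 (17 and 15) with DESeq2 and 98 (31 and 67) without the low-count filter; library totals alone gave 5 lower, and only the 2 groups compared gave 0 higher. Leaving out 1 library gave 0 to 55 called, 0 to 23 higher and 0 to 32 lower. The lowest count came without blank control replicate 1 and the highest without blank control replicate 2. The causes were not tested. The replicate numbers pair no samples: same-numbered libraries had correlations of deviations from -0.04 to 0.028. With a replicate block the other complement genes called in Firre minus negative control were 3 higher and 14 lower, and no member's call changed.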
